A study of Mus musculus with 13 samples.

Results

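Gene expression after 8 h of rotenone was compared with vehicle control in primary mouse cortical neurons on Illumina bead arrays. The comparison takes 7 of the 13 samples, the 3 arrays of cultures given 10 nM rotenone for 8 h and the 4 control arrays, as the sample labels name them. It covers every gene detected above background on at least 3 of the 13 arrays of any group, 11053 in all. Some of these genes, such as Trib3, were thus tested though detected on none of the 7 arrays. The neurons came from the cortices of fetal Swiss albino mice at gestational day 15 to 16 and were on day 5 of culture. Rotenone was added from a DMSO stock, while the vehicle of the controls and the hour at which they were collected are not given in the sources used here. A difference from control therefore includes the drug's effect as well as whatever the cultures did over those hours. The control labels also name EGCG, a second agent whose arrays were not analysed here. The labels do not say that replicates came from separate cultures, so the p-values reflect the spread among these arrays and no more, which may be technical. The other 6 samples, rotenone for 15 h and 24 h with 3 arrays each, entered the fit to estimate that spread and are described only for the genes that changed at 8 h.

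Rotenone blocks complex I, the entry point of NADH electrons into the mitochondrial respiratory chain, and so limits ATP production and raises reactive oxygen species. Neurons make most of the cholesterol of their own membranes in development. That synthesis is governed by the SREBP transcription factors, which the proteins encoded by the Insig genes hold in the endoplasmic reticulum while sterol is plentiful. When sterol in that membrane is low, SREBP2 moves to the nucleus and turns on the synthesis enzymes and Insig1 itself. Primary cortical cultures of this age are mostly excitatory neurons with a minority of inhibitory interneurons and of glial precursors.

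Markers of the labelled cell type were present. Of 13 pan-neuronal markers on the array 11 were detected on all 4 control arrays, and 21 of 22 markers of glutamatergic cortical neurons were. Markers of astrocytes and radial glia (23 of 28) and of the oligodendrocyte lineage (14 of 21) were also detected on all 4 controls, so the cultures held neural cells other than neurons. Of 22 microglial markers 11 were detected on all 4 controls. Among them were C1qa, C1qb, C1qc, Trem2, Spi1 and Laptm5, the last at a mean log2 level of 8.83. Others, such as Cx3cr1, Csf1r, P2ry12 and Ptprc, were detected on no control. Of 14 endothelial markers 1 was detected on all controls, and Cdh5 and Kdr on none, and of 13 markers of mural cells and fibroblasts 5 were. These 5 were Acta2, Dcn, Myl9, Pdgfrb and Fn1, with mean log2 levels from 9.75 (Acta2) to 6.56 (Fn1), while the collagen genes Col1a1, Col1a2 and Col3a1 were not detected. The mean probe signal lay between 325 and 405 on the 4 control arrays and between 340 and 403 on the 3 treated arrays, with 50.9% to 53.3% of probes detected. Few arrays limit the precision.

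A pair of the 7 arrays stood apart from their groups. A principal component analysis of the 7 arrays, whose leading axis carried 42.7% of the variance, placed control replicates 1, 2 and 4 at −7.88, −9.13 and −12.5, and 8 h replicates 1 and 3 at 13.7 and 14.5. Control replicate 3 lay at 5.72, on the side of the treated arrays, and 8 h replicate 2 lay at −4.49, on the side of the controls. The immediate early gene Fos followed this order, with log2 levels of 9.54 in control replicate 3 and 7.04 in 8 h replicate 2, against 6.95 to 7.48 in the other controls and 10.00 and 10.11 in the other treated arrays. The sterol gene Insig1 did not, since it was at 7.11 in control replicate 3 and 8.79 in 8 h replicate 2, within or beyond its own group. The counts for the gene lists described below are therefore given with and without this pair of arrays.

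At 8 h few genes had changed. Of the 11053 genes tested 48 were called at an adjusted p under 0.05 (0.434%), 16 higher (0.145%) and 32 lower (0.29%). Sterol synthesis genes made up 8 of the 16 that rose, and the sterol-responsive genes Insig1 and Stard4 were a further pair. Among the 32 that fell were inhibitory neuropeptide genes, glial lineage genes and genes of fatty acid use and detoxification. All 48 had their 3 treated arrays on one side of all 4 controls, which 4.37% of all genes did above and 6.99% did below the controls. The sizes were modest, with a median log2 change of 0.77 for the genes that rose and −0.67 for those that fell, against −0.0040 over all genes. At least 2-fold changes were reached by 4 of the genes that rose (0.0362%) and 5 of those that fell (0.0452%).

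**Figure D1:**
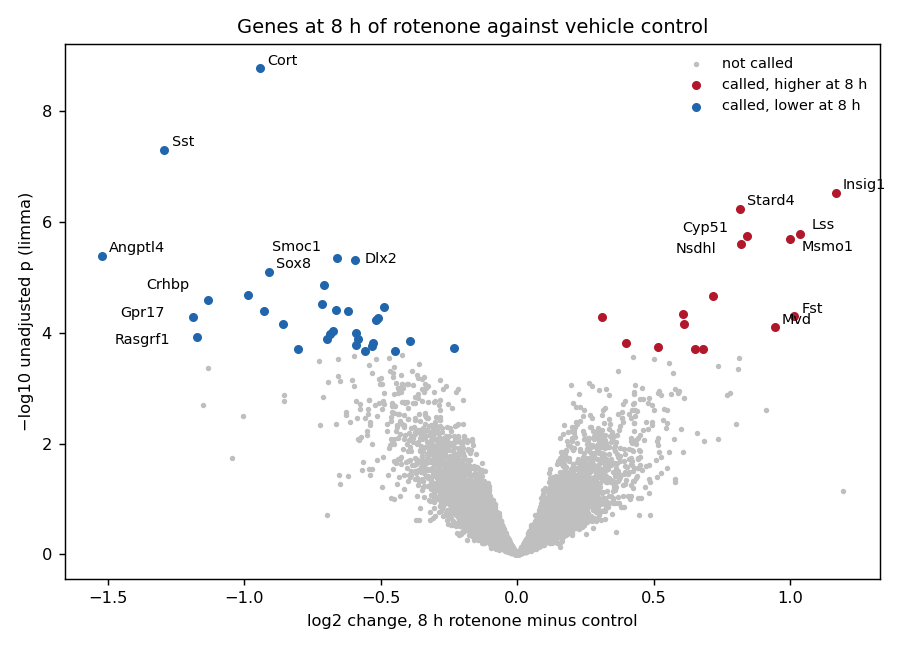
Each point is one of 11053 genes, with the log2 change at 8 h against control on the horizontal axis and the negative log10 of limma's unadjusted p on the vertical axis. Red points are the 16 genes called higher and blue points the 32 called lower. Cort and Sst had the smallest p, and Insig1, at 1.17, was the largest rise among the called genes.

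How many genes were called depended on the arrays in the fit. The 7 arrays alone gave 17 calls, 11 higher and 6 lower. Without control replicate 3 there were 131 calls and without 8 h replicate 2 there were 179, while leaving out 8 h replicate 1 or 3 left 10 each. Leaving out control replicate 3 and 8 h replicate 2 together gave 629 calls (5.76% of genes), 373 higher (3.41%) and 256 lower (2.34%), and 45 of the 48 genes were among them. These 2 arrays were chosen for lying nearest to the other group, so that larger count and the list counts from the same fit are descriptions. The 9 genes called whichever 1 of the 13 arrays was left out were Insig1, Stard4, Lss, Cyp51, Msmo1, Nsdhl, Sst, Cort and Angptl4. Without 15 h replicate 1, which adds to the spread of the fit but not to the difference, 183 genes were called. The 7 arrays lay on 2 chips, and the chip barcodes of the labels and those found by matching signals differ. With the labels' chips as a block 37 genes were called, and with the matched chips as a block 50. Within the first chip, which held 2 control and 2 treated arrays by either assignment, 3 were called. The second chip held 2 controls and 1 treated array, 8 h replicate 3 by the labels (0 calls) or 8 h replicate 1 by matching (1460 calls). Those counts assume that the lone treated array varies like the other groups, so they do not test the treatment within that chip.

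Insig1, whose protein retains the SREBP complex in the endoplasmic reticulum and is itself an SREBP target, rose most among the genes called. Its log2 levels were 7.30, 7.38, 7.11 and 7.38 in the controls and 8.19, 8.79 and 8.40 at 8 h. The groups did not overlap, and the array with the highest level was 8 h replicate 2. The rise was 1.17 ± 0.14 on the log2 scale (adjusted p = 0.0011; ± gives the fitted standard error throughout), and a second Insig1 probe rose by 1.15. Stard4, a soluble carrier of cholesterol between membranes, was at 8.71, 8.59, 8.36 and 8.61 in the controls and at 9.37, 9.48 and 9.31 at 8 h. It rose by 0.82 ± 0.10 (adjusted p = 0.0016), and its treated arrays were closer to each other than its controls were.

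Enzymes of early and late steps of sterol synthesis were among the genes that rose. Acat2, which joins 2 acetyl-CoA molecules at the start of the pathway, had log2 levels of 10.61, 10.70, 10.89 and 10.58 in the controls and 11.49, 11.29 and 11.47 at 8 h, a rise of 0.72 ± 0.12 (adjusted p = 0.016). Mvd, which makes an isoprenoid unit, was at 7.75, 7.82, 7.64 and 7.82 in the controls and 8.67, 8.83 and 8.61 at 8 h (0.94 ± 0.18, adjusted p = 0.029). For Acat2 and Mvd the lowest treated array lay above the highest control. For Acat2 a second probe changed by 0.51.

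Of the enzymes that close and trim the sterol ring 5 rose. Lss, which folds squalene epoxide into lanosterol, the first sterol, was at 7.07, 7.13, 7.72 and 7.02 in the controls and 8.27, 8.25 and 8.30 at 8 h. The rise was 1.04 ± 0.14 (adjusted p = 0.0031), and control replicate 3 lay well above the other 3 controls but below every treated array. Cyp51, the lanosterol demethylase, was at 9.21, 9.35, 9.55 and 9.23 in the controls and 10.10, 10.26 and 10.17 at 8 h (0.84 ± 0.11, adjusted p = 0.0031). Msmo1, which oxidises the methyl groups that are then removed, was at 10.86, 11.24, 10.52 and 10.50 and then at 11.81, 11.80 and 11.73 (1.00 ± 0.14, adjusted p = 0.0031). Nsdhl, which carries out the next decarboxylation, was at 11.36, 11.45, 11.54 and 11.05 and then at 12.17, 12.21 and 12.12 (0.82 ± 0.11, adjusted p = 0.0034), with its other probes at 0.58 and 0.52. Dhcr7, which makes cholesterol in the final reduction, rose by 0.61 ± 0.11 (adjusted p = 0.023). In all of these genes the control and treated levels did not overlap.

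**Figure D2:**
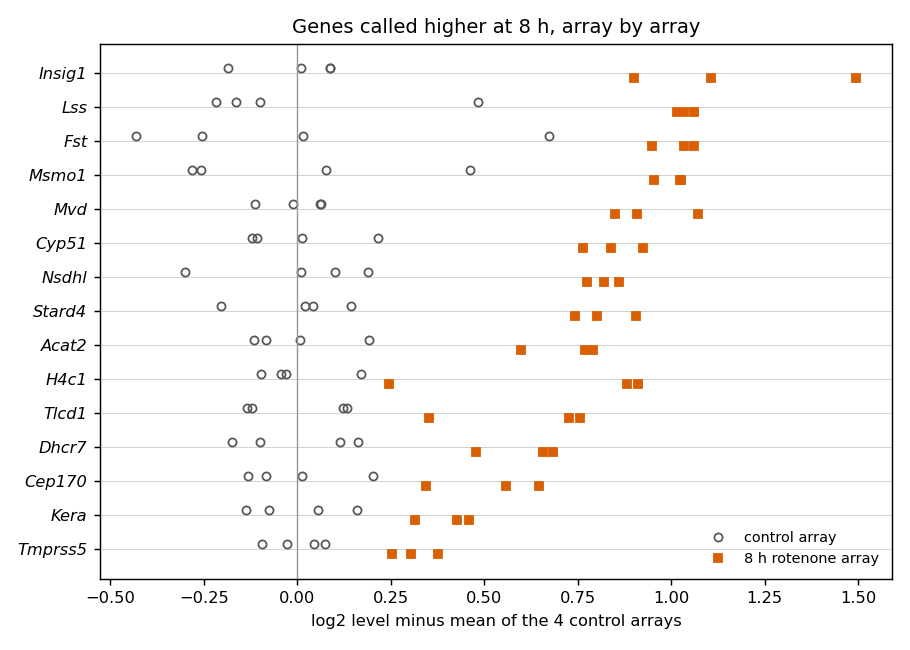
Each row is a gene called higher at 8 h and described in the text, with its log2 level on each array less the mean of the 4 controls on the horizontal axis. Open circles are the 4 control arrays and orange squares the 3 treated arrays. In every row the squares lie to the right of all circles, and H4c1 and Tlcd1 have 1 treated array close to the controls.

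Over the whole list of sterol synthesis enzymes, chosen with earlier results known, 19 of 22 were tested, 8 were called higher and none lower, against 16 and 32 of 11053 over all genes. The median log2 change was 0.55, and the 3 treated arrays taken singly gave medians of 0.48, 0.71 and 0.62. All 19 except Ebp lay above 0, and 14 had all treated arrays above all controls (4.37% of all genes). Of the members that did not pass, Fdps (0.81 ± 0.18, adjusted p = 0.058) lay just outside the threshold. Sqle, which makes squalene epoxide, was at 0.55 ± 0.15 (adjusted p = 0.14). Ebp was at −0.23 ± 0.11 (adjusted p = 0.45), and Hmgcs1, an early enzyme of the mevalonate pathway, was at 0.0042 with levels between 14.14 and 14.28 on all 7 arrays. Its level was the same on several arrays because quantile normalization gives probes of equal rank the same value. Hmgcs1 had the highest level of the list, and a probe so bright may have little room to rise on this scale. Its value therefore does not show that the gene was unchanged. Fdps, Sqle, Ebp and Hmgcs1 were chosen for mention after their values were seen. Without control replicate 3 and 8 h replicate 2 the list held 11 genes called higher (3.41% of all genes) and a median of 0.53.

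Of 23 tested genes of sterol sensing, uptake and transport the called ones were Insig1 and Stard4, both higher (0.145% of all genes). The median was 0.0044. Leaving out both arrays that stand apart, 2 were called higher and 0 lower (3.41% and 2.34% of all genes). Tmem97, a sterol-regulated membrane protein, was at 0.29 ± 0.12 (adjusted p = 0.39). Srebf1, which encodes the SREBP1 proteins, was not detected on any of the 7 arrays, and Srebf2 had no tested probe. Of 18 tested genes of fatty acid synthesis and desaturation, a pathway governed mainly by SREBP1, none was called. Their median was 0.18, and the unadjusted p was under 0.05 for 5 that were higher and none that was lower, against 4.65% of all genes higher and 6.03% lower. Scd1, a fatty acid desaturase, was at 9.48, 9.55, 11.00 and 10.18 in the controls and 11.17, 10.72 and 11.01 at 8 h. Its groups overlapped through control replicate 3 (0.91 ± 0.25, adjusted p = 0.14). Scd2, a desaturase with a stronger signal, had a mean log2 level of 14.08 in the controls and 14.11 at 8 h. Acss2, which makes acetyl-CoA from acetate, was at 0.77 ± 0.20 (adjusted p = 0.11), with a second probe at 0.04, and Acly, which makes it from citrate, at 0.48 ± 0.13 (adjusted p = 0.12). Without both arrays that stand apart, 3 genes of this list were called higher (3.41% of all genes).

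The promoters of the sterol genes that rose most are shown because their rise was shared. The 5 windows are the 250 bases before the start in RefSeq (build GRCm38.p6), 5′ to 3′ in the direction of the gene, in lower case with NF-Y boxes in capitals. NF-Y is a factor that works beside SREBP at sterol genes, and its box CCAAT reads ATTGG on the other strand.
Insig1, chr5:28071162-28071411, + strand: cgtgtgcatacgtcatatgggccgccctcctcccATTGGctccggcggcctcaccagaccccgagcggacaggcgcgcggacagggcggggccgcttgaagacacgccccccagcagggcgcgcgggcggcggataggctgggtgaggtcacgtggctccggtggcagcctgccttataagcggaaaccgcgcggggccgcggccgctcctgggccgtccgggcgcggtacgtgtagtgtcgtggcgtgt
Lss, chr10:76531355-76531604, + strand: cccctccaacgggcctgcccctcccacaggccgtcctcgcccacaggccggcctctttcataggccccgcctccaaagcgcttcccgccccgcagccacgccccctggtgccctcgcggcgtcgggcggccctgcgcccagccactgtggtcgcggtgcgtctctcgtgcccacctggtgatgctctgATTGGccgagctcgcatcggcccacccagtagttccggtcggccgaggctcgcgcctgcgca
Msmo1, chr8:64733579-64733828, - strand: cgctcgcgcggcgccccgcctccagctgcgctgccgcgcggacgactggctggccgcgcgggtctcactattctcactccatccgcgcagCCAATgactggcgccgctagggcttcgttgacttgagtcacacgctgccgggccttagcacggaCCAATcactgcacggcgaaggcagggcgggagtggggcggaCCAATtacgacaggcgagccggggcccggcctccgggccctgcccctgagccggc
Mvd, chr8:122443423-122443672, - strand: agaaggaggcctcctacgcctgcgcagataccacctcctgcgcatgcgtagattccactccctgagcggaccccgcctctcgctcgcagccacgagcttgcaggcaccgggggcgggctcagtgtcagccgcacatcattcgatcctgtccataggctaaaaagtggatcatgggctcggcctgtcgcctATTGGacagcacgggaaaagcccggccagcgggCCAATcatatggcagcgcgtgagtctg
Cyp51, chr5:4104698-4104947, - strand: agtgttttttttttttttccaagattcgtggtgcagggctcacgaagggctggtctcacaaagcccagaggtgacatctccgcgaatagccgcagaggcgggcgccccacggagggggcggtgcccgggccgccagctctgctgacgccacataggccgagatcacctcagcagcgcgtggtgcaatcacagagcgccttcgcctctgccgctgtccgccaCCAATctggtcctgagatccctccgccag
Msmo1 holds 3 such boxes, at 160, 96 and 55 bases before its start, and Mvd holds 2, at 60 and 27. Insig1, Lss and Cyp51 hold 1 each, at 216, 62 and 29 bases. In windows from 250 bases before to 50 after the start, 16 of 17 sterol synthesis enzymes with a promoter in the table held CCAAT on either strand (94.1%), as did 7 of 8 called sterol genes (87.5%). The share was 41.1% of all 27025 genes with a promoter and 43.0% of the 8675 tested ones, and 37.4% of all 32851 windows. The sterol regulatory element was searched on both strands in the single spelling TCACNCCAC. These letters were found in 0 of the 8 called genes and in 1 of the 17 enzymes. The shares were 1.44% of all genes and 1.24% of all windows. The letters are thus not in the windows shown, and other spellings of the element were not searched.

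Of the genes of fatty acid use, many of them targets of the PPAR nuclear receptors, 3 fell. The list held 20 tested members, with 3 called lower (0.29% of all genes) and 0 higher and a median of −0.28, and 10 had all treated arrays below all controls (6.99% of all genes). Angptl4, which encodes a secreted protein that blocks lipoprotein lipase, fell most of all genes called. Its log2 levels were 8.43, 8.22, 8.30 and 8.80 in the controls and 7.17, 6.37 and 7.21 at 8 h, lowest in 8 h replicate 2. It fell by 1.52 ± 0.22 (adjusted p = 0.0048), while its second probe changed by −0.28, so the probes differed in size. Cpt2, which hands fatty acids to oxidation inside the mitochondrion, fell by 0.68 ± 0.13 (adjusted p = 0.035), and its second probe changed by −0.38. Acadm and Decr1, enzymes of the oxidation itself, were at −0.42 ± 0.11 and −0.28 ± 0.08 with adjusted p = 0.13 and 0.14. Acaa2, a thiolase of the same pathway that is not on the list, was at −0.73 ± 0.16 (adjusted p = 0.061) with its other probes at −0.85 and −0.74. These 3 genes were chosen after their values were seen. Without both arrays that stand apart 4 genes of the list were lower (2.34% of all genes), with a median of −0.28.

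Several genes of inhibitory interneurons fell, led by neuropeptides. Sst encodes somatostatin, which marks a class of cortical interneurons. Its log2 levels were 11.25, 11.19, 11.43 and 11.34 in the controls and 9.99, 10.06 and 9.98 at 8 h. No treated array came near the lowest control, and the fall was 1.29 ± 0.13 (adjusted p = 2.7e-04). Cort encodes cortistatin, a related peptide of the same cells. It was at 7.79, 7.67, 7.75 and 7.76 in the controls and 6.79, 6.77 and 6.85 at 8 h, the change with the smallest adjusted p of all genes (−0.94 ± 0.08, adjusted p = 1.8e-05), with a second probe at −0.67. Crhbp, which encodes the binding protein of corticotropin-releasing hormone and is found in such interneurons, fell by 1.13 ± 0.19 (adjusted p = 0.018). Its controls were spread, at 7.78, 7.85, 8.33 and 7.05, but all lay above the treated levels of 6.59, 6.64 and 6.63. Dlx2, a transcription factor that specifies interneurons, fell by 0.59 ± 0.09 (adjusted p = 0.0048), from between 10.09 and 10.19 to between 9.47 and 9.61, and its second probe changed by −0.22.

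The rest of the interneuron genes mostly did not pass. Of 13 tested genes of GABA synthesis and interneuron peptides 2 were called lower (0.29% of all genes) and 0 higher. The median was −0.37, and 12 of 13 lay below 0. The 3 treated arrays gave medians of −0.41, −0.19 and −0.38. Gad1, the main GABA-making enzyme, was at 11.24, 11.24, 11.30 and 10.56 in the controls and 10.63, 10.34 and 10.61 at 8 h. The low control replicate 4 made the groups overlap, and the difference was −0.56 ± 0.16 (adjusted p = 0.17), the same on a second probe. Slc32a1, the vesicular GABA transporter, was at −0.50 ± 0.12 (adjusted p = 0.096) and Npy, another interneuron peptide, at −0.61 ± 0.18 (adjusted p = 0.19). Gad2 was not detected on any of the 7 arrays. Calb2, named after its value was seen, was the single member above 0, at 0.25 ± 0.09 (adjusted p = 0.30). Of 14 tested interneuron transcription factors 1 was called, Dlx2, with Sp8 at −0.49 ± 0.13 and Dlx1 at −0.32 ± 0.11 (adjusted p = 0.13 and 0.26). Markers of glutamatergic neurons, the main cell of the culture, had a median of 0.04 and pan-neuronal markers 0.14, with none called in either list. In these bulk samples fewer cells of a type and less RNA per cell cannot be told apart. Without both arrays that stand apart 6 genes of the GABA list and 1 interneuron transcription factor were lower and 0 higher. In that fit glutamatergic markers had 3 higher and 1 lower, and pan-neuronal markers 1 of each. Over all genes it called 3.41% higher and 2.34% lower.

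The Sst promoter is shown because a cyclic AMP response element in it, TGACGTCA, is a textbook control site of the gene. The window is the 250 bases before its start in RefSeq (build GRCm38.p6), 5′ to 3′ in the direction of the gene, with the element in capitals.
Sst, chr16:23890845-23891094, - strand: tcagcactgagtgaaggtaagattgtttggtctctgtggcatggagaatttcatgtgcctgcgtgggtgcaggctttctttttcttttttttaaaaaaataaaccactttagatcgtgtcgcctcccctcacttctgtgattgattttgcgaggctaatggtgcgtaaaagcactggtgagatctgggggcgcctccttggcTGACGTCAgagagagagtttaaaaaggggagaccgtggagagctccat
The element begins 48 bases before the start. It was found, on either strand, in 2.03% of all genes with a promoter in the table, in 3.53% of the tested ones and in 1.79% of the windows, and in 1 of the 19 called lower genes with a promoter, which is Sst, and 1 of 13 called higher.

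Several genes of the oligodendrocyte lineage fell. Gpr17, a receptor of precursors about to mature, was at 8.07, 7.87, 7.33 and 8.28 in the controls and 6.60, 7.03 and 6.47 at 8 h (−1.19 ± 0.22, adjusted p = 0.023). Sox8, a transcription factor of the lineage, was at 9.03, 9.10, 8.99 and 9.37 and then at 8.08, 8.61 and 7.94 (−0.91 ± 0.14, adjusted p = 0.0073). Bcas1, a marker of newly forming myelinating cells, was at 8.42, 8.34, 7.76 and 8.37 and then at 7.21, 7.66 and 7.22 (−0.86 ± 0.16, adjusted p = 0.026). In all of these the treated arrays lay below every control, and 8 h replicate 2 lay nearest to the controls. Omg, the oligodendrocyte myelin glycoprotein, which neurons also make, was at 8.70, 8.67, 9.55 and 8.94 and then at 7.93, 8.16 and 7.85 (−0.99 ± 0.17, adjusted p = 0.016). Myt1, a zinc finger factor of progenitors of this lineage and of young neurons, fell by 0.53 ± 0.11 (adjusted p = 0.043).

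Across the oligodendrocyte list 17 members were tested, 3 were called lower and 0 higher, and the median was −0.31. Of all genes 0.29% were called lower. All but C1ql1 lay below 0, and 11 had non-overlapping levels, while 6.99% of all genes had every treated array below every control. The median log2 level over the list was 7.06 to 7.35 on the controls and 6.55 to 6.86 on the treated arrays. Sox10 and Pdgfra, which mark precursors, were at −1.13 ± 0.26 (adjusted p = 0.075) and −1.01 ± 0.29 (adjusted p = 0.17), and Pdgfra levels were 9.01, 9.71 and 8.78 at 8 h against 9.95 to 10.44 in controls. Olig2, the factor that founds the lineage, was at −0.46 ± 0.11 (adjusted p = 0.091) and Olig1 at −0.50 ± 0.12 (adjusted p = 0.093). Sox10 and Olig1 were chosen after their values were seen. Of the myelin genes, Mog, Mag, Mobp and Opalin were detected on no control, while Mbp was at −0.03. With the 7 arrays alone none of the list was called, where 6 of all 11053 genes were lower. Without 8 h replicate 2 there were 6 calls, all lower, where 85 of all 11005 genes were lower. Without both arrays that stand apart there were 7, all lower (2.34% of all genes).

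Astrocyte and progenitor genes moved less as lists. Sox9, a transcription factor of radial glia and astrocytes, fell by 0.71 ± 0.11 (adjusted p = 0.012), from between 10.49 and 10.67 in the controls to 9.81, 10.20 and 9.63. It was the 1 called gene of 24 tested astrocyte and radial glia genes, whose median was −0.13, while 0.29% of all genes were called lower. The list's median differed by array, at −0.07 and −0.0037 in 8 h replicates 1 and 3 and −0.36 in 8 h replicate 2, and was 0.0022 without replicate 2. Pla2g7 was at −0.66 ± 0.15 (adjusted p = 0.090) and Gja1, the astrocyte gap junction protein, at −0.55 ± 0.15 (adjusted p = 0.14). Gfap, the astrocyte filament protein, was at 7.24, 7.21, 7.29 and 8.09 in the controls and 7.37, 7.14 and 7.48 at 8 h. Its groups overlapped, and the sign of its difference (−0.13 ± 0.18, adjusted p = 0.87) turned without control replicate 4, to 0.0832. Id4, an inhibitor of differentiation factors in progenitors, fell by 0.59 ± 0.12 (adjusted p = 0.045), the 1 called of 21 BMP, TGF-beta and Id genes. Of 21 tested Notch pathway and progenitor genes none was called. Hes5, the main Notch target of progenitors, was at 8.60, 8.53, 8.32 and 9.23 in the controls and 7.03, 8.53 and 7.01 at 8 h. It was low in 8 h replicates 1 and 3 and at the level of the controls in 8 h replicate 2 (−1.15 ± 0.31, adjusted p = 0.13). In the fit without both arrays 1 astrocyte gene was higher and 2 were lower, as were 2 and 3 of the BMP, TGF-beta and Id genes and 2 and 4 of the Notch list. That fit called 3.41% of all genes higher and 2.34% lower.

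**Figure D3:**
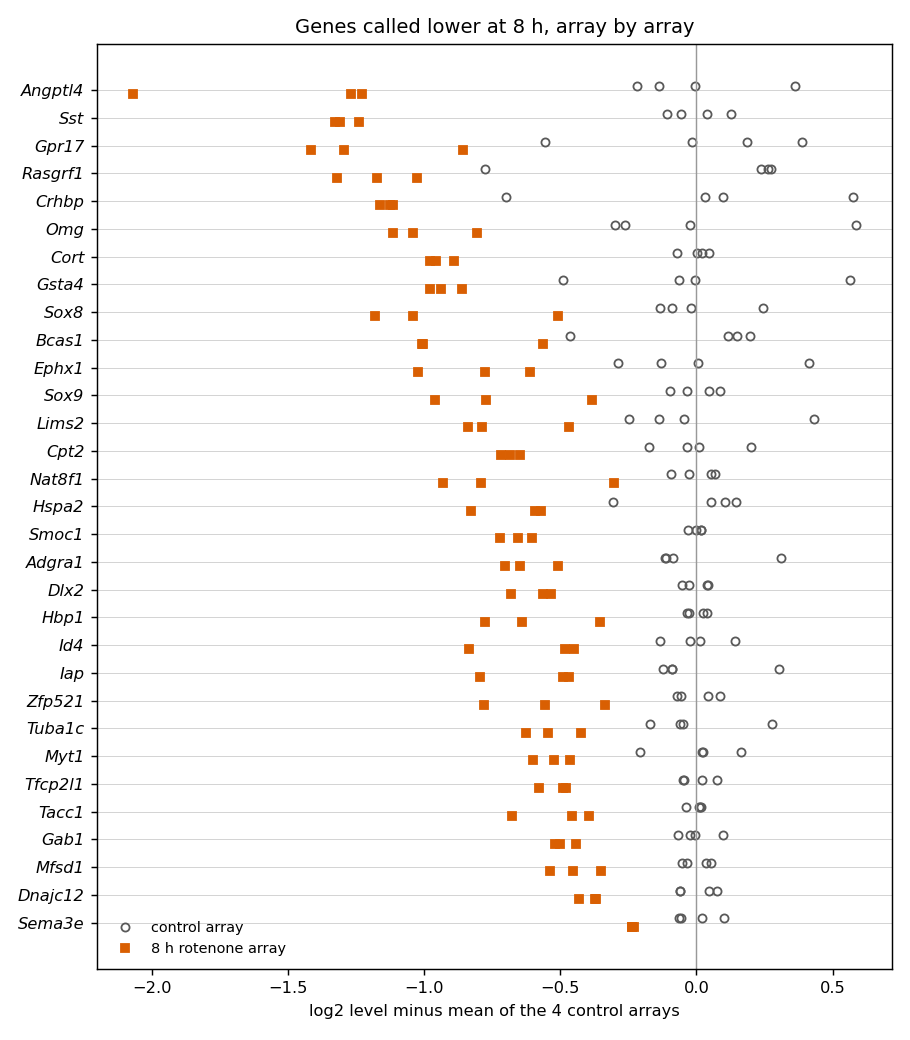
Each row is a gene called lower at 8 h and described in the text, with its log2 level on each array less the mean of the 4 controls on the horizontal axis. Open circles are the 4 control arrays and orange squares the 3 treated arrays. In every row the squares lie to the left of all circles, with a narrow gap for Gpr17, Rasgrf1 and Bcas1, where 1 control is low.

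A pair of detoxification genes fell. Gsta4, a glutathione transferase that clears lipid peroxidation products, was at 10.61, 10.55, 10.13 and 11.18 in the controls and 9.68, 9.64 and 9.76 at 8 h (−0.93 ± 0.16, adjusted p = 0.021). Ephx1, the microsomal epoxide hydrolase, was at 8.73, 8.59, 8.43 and 9.14 and then at 7.95, 7.70 and 8.11 (−0.80 ± 0.17, adjusted p = 0.048). The treated arrays of both genes lay below all controls, which were widely spread. Both genes are on the list of 31 tested NRF2 targets, genes of antioxidant defence. There 2 were called lower (0.29% of all genes) and 0 higher, and the median was −0.10. Fth1, the ferritin heavy chain, was at −0.34 ± 0.08 (adjusted p = 0.092). Hmox1, the heme oxygenase, was at 8.21, 8.23, 9.45 and 8.87 in the controls and 8.76, 7.94 and 8.99 at 8 h. The groups overlapped (−0.13 ± 0.26, adjusted p = 0.92), and the sign turned to 0.123 without control replicate 3 and 0.180 without 8 h replicate 2. Gsta4 was also the 1 called of 17 glutathione transferases (median −0.16), where Gstm1 was at −0.46 ± 0.13 (adjusted p = 0.17), and Ephx1 the 1 called of 10 xenobiotic response genes (median −0.19). In the fit without both arrays 5 NRF2 targets, 2 glutathione transferases and 1 xenobiotic response gene were lower and 0 higher. That fit called 2.34% of all genes lower. Nat8f1, an acetyltransferase gene, fell by 0.67 ± 0.13 (adjusted p = 0.033).

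Other called genes had varied roles. Fst encodes follistatin, which binds and blocks activin. It was at 7.33, 7.51, 8.43 and 7.78 in the controls and 8.80, 8.71 and 8.82 at 8 h (1.01 ± 0.18, adjusted p = 0.023), and control replicate 3 lay close to the treated arrays. H4c1, a replication-dependent histone gene with near-identical copies whose RNA the probe may also bind, was at 7.31, 7.32, 7.25 and 7.52 and then at 8.23, 7.60 and 8.26. Its value is uncertain for that reason (0.68 ± 0.14, adjusted p = 0.048). Tlcd1, which regulates membrane lipid composition, was at 8.07, 8.08, 8.33 and 8.32 and then at 8.93, 8.55 and 8.96 (0.61 ± 0.11, adjusted p = 0.026). In H4c1 and Tlcd1, 8 h replicate 2 lay well below the other treated arrays. The other genes that rose were Cep170, a centrosomal protein (0.52 ± 0.11), Kera, a matrix proteoglycan (0.40 ± 0.08), and Tmprss5, a membrane serine protease detected on 2 of 4 controls (0.31 ± 0.06), at adjusted p from 0.023 to 0.046.

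Among genes that fell, Rasgrf1, a neuronal activator of Ras, was at 9.64, 9.62, 8.60 and 9.65 in the controls and 8.21, 8.06 and 8.35 at 8 h (−1.17 ± 0.23, adjusted p = 0.039). Control replicate 3 lay between the other controls and the treated arrays. Smoc1, a secreted matrix protein, was tight in both groups, at 10.55 to 10.61 and then 9.87 to 9.98 (−0.66 ± 0.10, adjusted p = 0.0048). Signalling genes included Gab1, an adaptor of growth factor receptors (−0.49 ± 0.09), and Adgra1, an adhesion receptor (−0.62 ± 0.11). Hbp1 (−0.59 ± 0.11), Zfp521 (−0.56 ± 0.12) and Tfcp2l1 (−0.52 ± 0.09) encode transcription factors. Hspa2 (−0.66 ± 0.12) and Dnajc12 (−0.39 ± 0.08) encode chaperones, Tuba1c (−0.53 ± 0.11) a tubulin and Tacc1 (−0.51 ± 0.09) a microtubule-associated protein. Lims2 (−0.70 ± 0.14) acts at focal adhesions and Mfsd1 (−0.45 ± 0.09) is a lysosomal transporter. Iap (−0.58 ± 0.12), named as in the file and not found in the reference, and Sema3e (−0.23 ± 0.05), an axon guidance signal, also fell. Sema3e was detected on 3 controls and on no treated array, where it was at least 1.04-fold lower. The adjusted p of these genes, Rasgrf1 and Smoc1 aside, lay between 0.021 and 0.0497. Just outside the threshold were Prkcq (−0.42, adjusted p = 0.055) and Ednrb (−0.60, adjusted p = 0.057), given for scale and chosen after their values were seen.

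**Figure D4:**
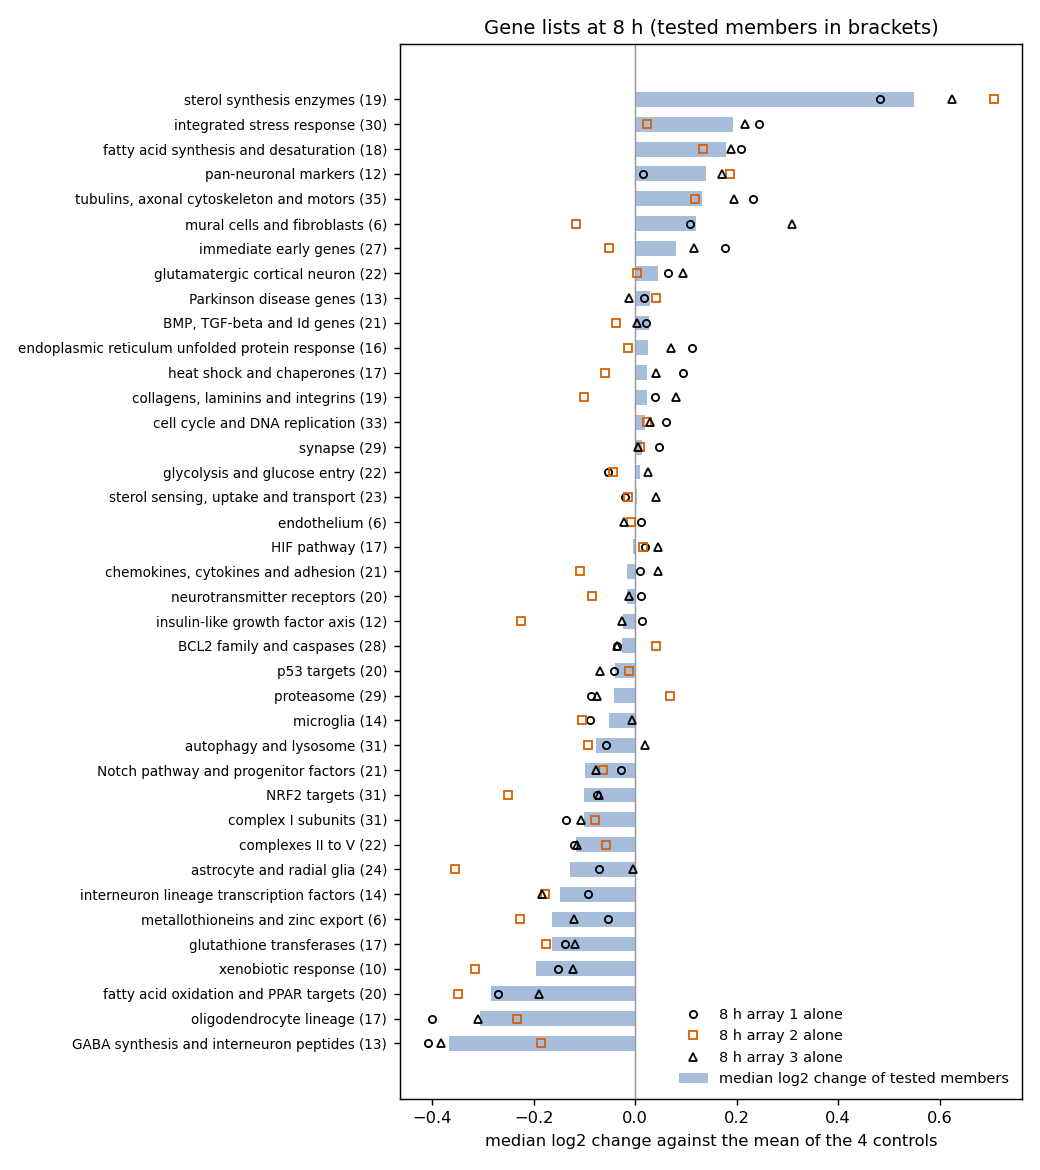
Bars give the median log2 change at 8 h of the tested members of each of 39 gene lists, with the number tested in brackets, and symbols the same median for each treated array alone. Sterol synthesis enzymes stand highest at 0.55, and GABA synthesis and interneuron peptides lowest at −0.37. 8 h replicate 2, the orange square, departs from the other treated arrays in the astrocyte, NRF2 and mural cell lists.

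With all arrays, several pathways tied to complex I inhibition held no called gene at 8 h. The 31 tested complex I subunits had a median of −0.10, with 28 below 0. The unadjusted p was under 0.05 for 6 of them, all below control (6.03% of all genes were lower at this p), led by Ndufs3 (−0.35 ± 0.13, adjusted p = 0.32). For 22 genes of complexes II to V the median was −0.12, with none at an unadjusted p under 0.05. Of the 38 genes listed there 25 were found on the array by name. Atp5pb was the only complex V gene among them, so that complex was hardly covered. Over 22 glycolysis genes the median was 0.0092, with Tpi1 at −0.46 ± 0.12 (adjusted p = 0.13). The glucose transporter Slc2a1 was at 7.74, 7.82, 8.39 and 7.66 in the controls and 8.37, 7.75 and 8.45 at 8 h, overlapping through the arrays that stand apart (0.29 ± 0.24, adjusted p = 0.74). In the hypoxia list Vegfa, the vascular growth factor, was at 0.59 ± 0.15 (adjusted p = 0.11) and the median of 17 genes was −0.0049. Of 20 p53 targets none was called, and Cdkn1a, the cell cycle inhibitor, was at 9.77, 9.46, 10.17 and 10.04 and then at 9.25, 9.41 and 9.15. Its levels did not overlap and it was lower, not higher (−0.59 ± 0.16, adjusted p = 0.13), as was its second probe (−0.69). Of 28 genes of the BCL2 family and caspases none was called. Calls were made in each of these lists without both arrays that stand apart, where 3.41% of all genes were higher and 2.34% lower. There were 5 lower for complex I, 1 lower for complexes II to V, 2 higher and 3 lower for glycolysis, 1 higher for the hypoxia list, 2 lower for p53 targets and 1 higher for the BCL2 family and caspases.

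Stress-response genes were higher on some treated arrays, and with all arrays none was called. The integrated stress response list had a median of 0.19 over 30 genes. Of these 6, all above control, had an unadjusted p under 0.05 (4.65% of all genes were higher at this p). Of the 40 genes listed 32 were found on the array by name, and the listed tRNA synthetase genes were not among them. Atf4, its central transcription factor, was at 10.06, 10.01, 10.38 and 10.08 in the controls and 10.96, 10.31 and 10.96 at 8 h (0.61 ± 0.16, adjusted p = 0.12). Chac1, an ATF4 target, was at 0.60 ± 0.19 (adjusted p = 0.21), and Ddit3, which encodes CHOP, was at 7.66, 7.70, 8.27 and 8.17 and then at 8.34, 7.72 and 8.55 (0.25 ± 0.22, adjusted p = 0.75). In Atf4 and Ddit3 8 h replicate 2 lay within the range of the controls. Trib3, another target of this response, was not detected on any of the 7 arrays. Fos was at 7.48, 7.44, 9.54 and 6.95 in the controls and 10.00, 7.04 and 10.11 at 8 h. This difference, 1.19 ± 0.62, was larger than that of Insig1 but did not pass (adjusted p = 0.52), since each group had 1 array at the level of the other. Atf3, an early stress factor, was detected on 1 control and 2 treated arrays (0.38 ± 0.17, adjusted p = 0.43). Without 8 h replicate 2 the difference was 2.19 for Fos and 0.673 for Atf3. That array was set apart partly by its Fos level, so values of these stress genes without it are descriptions. Without both arrays that stand apart 8 immediate early genes and 7 integrated stress response genes were called higher and 0 lower. That fit called 3.41% of all genes higher and 2.34% lower. With all arrays 27 immediate early genes were tested and none was called.

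With all arrays, the remaining lists also held no called gene apart from Tuba1c among 35 tubulins and axonal genes, whose median was 0.13. Crmp1, which acts in axon growth, was at 0.58 ± 0.14 there (adjusted p = 0.10). The synapse list had a median of 0.01 over 29 genes, neurotransmitter receptors −0.02 over 20, and Parkinson disease genes 0.03 over 13. Mt1, a metallothionein, was at −0.43 ± 0.10 (adjusted p = 0.090), and the median of the 6 metallothionein and zinc export genes was −0.16. Dcn, a fibroblast and mural cell gene, was at 0.59 ± 0.15 (adjusted p = 0.11), with other probes at 0.24 and 0.30. The microglial list, with a median of −0.05, had median log2 levels of 6.48 to 6.69 on controls and 6.53 to 6.56 on treated arrays. Once the pair of arrays that stands apart was left out, 5 tubulins and axonal genes were higher and 3 lower, and 1 neurotransmitter receptor was higher and 3 were lower. In that fit 2 mural cell and fibroblast genes and 1 microglial gene were higher, and the synapse, Parkinson disease and metallothionein lists held no call. Of all genes 3.41% were higher in it and 2.34% lower.

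The genes whose levels were most like those of Insig1 over all 13 arrays were Stard4 (Pearson r = 0.854), Nudt9 (0.823), 9430038I01Rik (0.799), Pradc1 (0.793) and Gtf3c5 (0.777). The 13 arrays share 4 groups, so these values are a description. Of the 5, Stard4 was called at 8 h.

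The 48 genes were followed to the later times in values that share arrays with the comparison above. The 15 h and 24 h values against control share the 4 controls, and differences between times share the 3 arrays at 8 h, so the counts that follow are descriptions. Between 8 h and 15 h 51.1% of all genes were called and between 8 h and 24 h 55.1%, against 41 and 39 of the 48. Of the 16 genes that rose at 8 h, 13 were lower at 15 h than at 8 h (25.3% of all genes) and 1 was higher (25.8%). Of the 32 that fell, 23 were higher at 15 h than at 8 h and 4 were lower. At 24 h against 8 h, where 27.5% of all genes were lower and 27.6% higher, these counts were 13 and 1 for the genes that had risen and 14 and 11 for those that had fallen.

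Most called sterol genes were nearer to control, or below it, at the later times. Insig1 stood at 1.17 above control at 8 h, 0.94 at 15 h and 0.47 at 24 h. Lss stood at 1.04, 0.30 and 0.51, and Dhcr7 at 0.61, −0.66 and −0.82. Msmo1, at 1.00, −0.02 and 0.69, was lower at 15 h than at 8 h (−1.03, adjusted p = 2.5e-05), and its difference between 24 h and 8 h did not pass (−0.31, adjusted p = 0.084). Fst stood at 1.01, −1.0 and −0.99, and was lower at 15 h than at 8 h (−2.01, adjusted p = 5.7e-07). H4c1 was higher again at 15 h than at 8 h, by 0.62.

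The genes that fell took separate courses. Sst went on falling, at −1.29, −2.84 and −3.0 against control, and was lower at 15 h than at 8 h (−1.54, adjusted p = 3.1e-07). Cort stood at −0.94, −1.35 and −1.28. Gsta4, at −0.93, 1.96 and 2.90, and Ephx1, at −0.80, 1.40 and 1.85, moved to the other side of control, as did Angptl4, at −1.52, 1.91 and 1.24, and Cpt2, at −0.68, 1.21 and 0.90. Tuba1c stood at −0.53, 1.96 and 2.69. Dlx2, at −0.59, 0.73 and −1.89, Sox9, at −0.71, 0.77 and −0.92, and Sox8, at −0.91, 0.48 and −1.52, were above control at 15 h and below it again at 24 h. The adjusted p of the 15 h against 8 h difference was 7.1e-09 for Gsta4, 2.0e-08 for Angptl4 and 2.4e-08 for Dlx2.

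**Figure D5:**
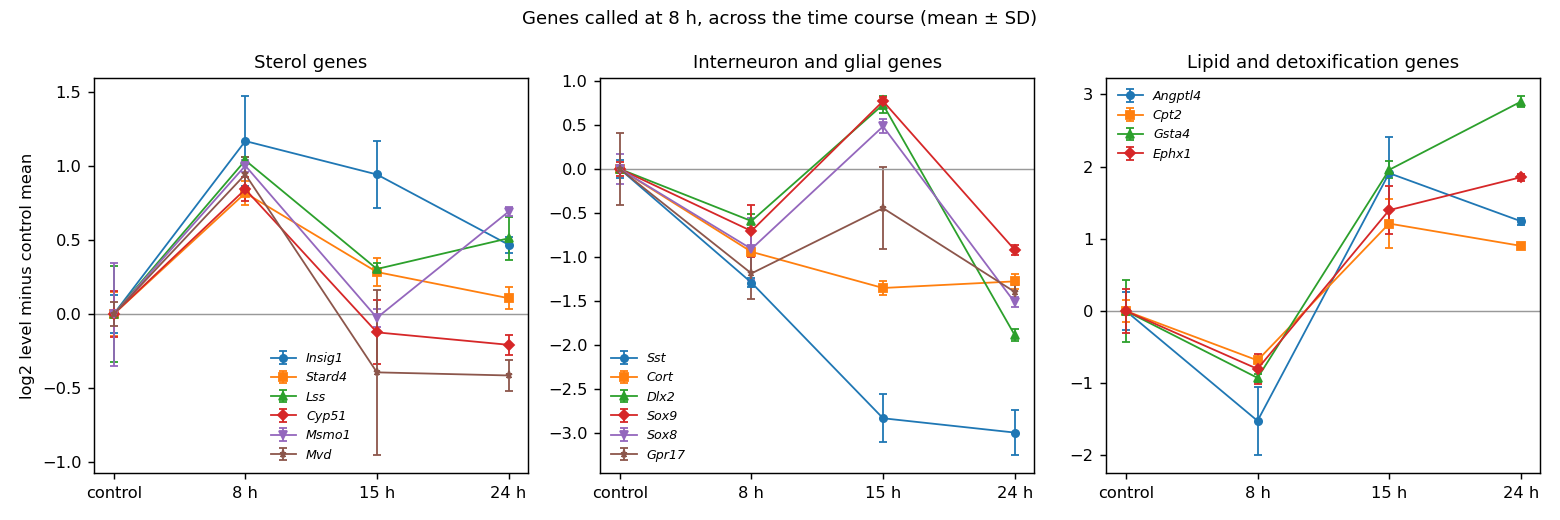
Each line is a gene called at 8 h, with the mean log2 level of each group less the control mean on the vertical axis, error bars of 1 SD, and 4 control and 3 treated arrays per time. Left, 6 sterol genes are highest at 8 h. Middle, Sst and Cort stay low while Dlx2, Sox9 and Sox8 cross above control at 15 h. Right, Gsta4, Ephx1, Angptl4 and Cpt2 are below control at 8 h and above it later.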

How the data were processed

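The members, gene lists and tests were chosen with earlier results of these data known. The authors deposited bead signal intensity per probe and array, not scaled between arrays, and a gene profile with signal intensity and a detection score, a fraction that falls as the detection p rises, both unnormalized output of BeadStudio 3.2.6 per the file headers. The authors' normalized table holds a ratio: each signal was divided by its array's median and by the median of the controls. This was found by recomputing it (largest relative difference 3.75e-07). The deposited series matrix holds the same ratio. Per the labels' protocols, RNA was purified with an RNeasy kit and labelled with a MessageAmp kit.

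Signals were background-corrected with normexp (offset 50) and quantile-normalized over all 13 arrays on the log2 scale. The starting values were the deposited signals and not the authors' normalized ratios. Of the bright gene signals of 1 profile array 80.4% to 83.5% were found among a sample's signals (tolerance 0.05), against 13.4% to 21.2% for the next array. That array was labelled as another replicate of the same group for all 13 samples, so groups hold but chips differ. Detection was read through that match, and 102 profile columns were not used. Of 24613 probes with a signal, 20514 were named by RefSeq accession (GRCm38.p6 tables), 2554 by description and 469 by a description not in the reference, and 1076 had no symbol. Probes with detection p under 0.05 on at least 3 of the 13 arrays, of any group, were kept (14359, 492 without a symbol). The brightest per gene was tested, so the lists include some genes detected on no control and no 8 h array.

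All 13 arrays were fitted as 4 groups in limma 3.58.1 under R 4.3.3, using lmFit and then eBayes with a mean-variance trend and 9 residual degrees of freedom, with Benjamini-Hochberg adjustment over 11053 genes. The steps were tested on simulated data. Every called gene could be named, with array values for the 12 largest rises and falls, as well as the 3 members of smallest p in each of 39 lists and a set that includes Gad1, Fos and Hmox1. Some genes of this rule are not reported here. The main fit did not pair samples by replicate number. Deviations of same-numbered control and 8 h arrays from their group means correlated at r of −0.0154, 0.185 and 0.215. This cannot exclude a pairing, because every sample matched an array labelled as another replicate and differently numbered arrays were not correlated. Alternatives covered background, scaling, the authors' values, detection filters, probe averaging, the 7 arrays alone, chips, a replicate block, array weights and leaving out each array. Leaving out control replicate 3 with 8 h replicate 2 was chosen after seeing the data.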

Additional observations from a re-analysis of the deposited data

Results flagged for a closer look

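Among 92 measures examined in the 4 controls, all genes apart from the mean signal and the share of probes detected, 11 genes had 1 array far from the other 3, where chance gives about 1 in 20. Control replicate 3 was the odd array in 5, at log2 levels of 7.72 for Lss (the others 7.02 to 7.13), 7.76 for Bcas1 (8.34 to 8.42), 8.60 for Rasgrf1 (9.62 to 9.65), 12.55 for Iap (12.12 to 12.15) and 8.72 for Tac1 (7.43 to 7.57). Control replicate 4 was the odd array in another 5, at 8.50 for Adgra1 (8.08 to 8.11), 12.88 for Fth1 (12.61 to 12.64), 10.68 for Tuba1a (11.04 to 11.11), 10.56 for Gad1 (11.24 to 11.30) and 8.09 for Gfap (7.21 to 7.29). Control replicate 1 was low for Tacc1, at 9.50 against 9.55 to 9.56.

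Between 8 h and 15 h most genes called at 8 h moved against their earlier change, whether a rise or a fall. This was not always a return to control, since some, such as Gsta4 and Dhcr7, lay on its other side at 15 h. Of the 16 genes that rose by 8 h, 13 were lower at 15 h than at 8 h (25.3% of all genes). Of the 32 that fell, 23 were higher at 15 h than at 8 h (25.8%), each by limma's test of the difference between times. Both steps share the arrays at 8 h, by which the genes were chosen, so the counts are descriptions.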

How the results depend on the processing

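All 48 called genes kept their direction in every alternative run, and none kept its call in all of them. The 48 calls became 17 with the 7 arrays alone, 17 with a replicate block (6 higher, 11 lower), 2654 with array weights, 629 without both arrays that stand apart, 3 and 0 within the labels' chips (858 genes at an unadjusted p under 0.05 in the second), and 3 and 1460 within the matched chips. By either assignment the second chip held 1 treated array, assumed to vary like the other groups. They ranged from 10 to 183 as single arrays were left out. No scaling between arrays changed the split to 10 higher and 45 lower. The 8 called sterol enzymes became 5 with no scaling, 5 with the authors' values and 4 with the replicate block. They became 0 within the labels' chip 1, 1 within matched chip 1, and 4 to 14 with single arrays left out. With array weights 15 were higher and 1 was lower, in a fit that called 1345 of all 11053 genes higher and 1309 lower. The sterol enzyme list's median of 0.55 moved to 0.697 with neqc, 0.687 within the labels' chip 2 and 0.72 and 0.408 within the matched chips. The GABA list's median of −0.37 moved to −0.0758 with no detection filter and −0.518 within matched chip 2, and ranged from −0.485 to −0.238 with single arrays left out. The oligodendrocyte list's median of −0.31 moved to −0.538 with neqc, −0.394 with no scaling, −0.399 with the authors' values, −0.2 with no detection filter, −0.456 with a strict one and −0.416 within the labels' chip 2. The causes of these shifts were not tested, except that the filters change the genes tested and the chips the arrays used.

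Among genes that did not pass, Ddit3 turned to −0.0869 within matched chip 1. Gfap turned to 0.0288 within the labels' chip 1, 0.145 within matched chip 2, 0.0834 with the replicate block, 0.0769 with array weights and 0.0832 without control replicate 4, in a range from −0.206 as single arrays were left out. Hmox1 turned to 0.129 within the labels' chip 1, 0.538 within matched chip 2 (1 treated array), 0.413 with array weights, 0.431 without both arrays that stand apart, and 0.123 and 0.18 without either, in a range from −0.341 as single arrays were left out. The small number of arrays limits the precision. The lowest array weights were 0.111 for 15 h replicate 1, 0.288 for 8 h replicate 2 and 0.398 for control replicate 3.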

Other observations

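Scg2, which encodes the neuronal secretory protein secretogranin II, and the tachykinin gene Tac1 were uneven within the controls. Scg2 was at log2 levels of 8.32, 8.42, 10.78 and 9.59 in the controls and 8.12, 8.45 and 8.13 at 8 h, a difference of −1.04 (adjusted p = 0.34) carried by control replicates 3 and 4. Tac1 was at 7.43, 7.51, 8.72 and 7.57 in the controls and 7.09, 7.03 and 7.12 at 8 h (−0.72, adjusted p = 0.19), and its groups did not overlap. Both genes were chosen after their values were seen.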
